A study of Mus musculus with 10 samples.

Results

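Genes of the hypoxia-inducible factor (HIF) pathway were followed across 10 RNA sequencing libraries of mouse lung tumors. The set held 10 of the 39017 genes in the deposited count table, taken as the rows whose symbol was Hif1a, Epas1, Arnt, Egln1, Egln3, Vegfa, Adm, Car9, Bnip3 or Ndrg1, and each symbol had 1 row. All tumors carried K-rasLSL-G12D/WT and p53Fl/Fl alleles (KP) on a C57BL/6 background. They had been started in the airways with Ad5CC10-Cre, an adenovirus whose Cre recombinase is driven by the promoter of the club cell gene CC10, so only cells using that promoter were meant to recombine. Tumors were dissected 20 weeks and 1 day later, dissociated and depleted of CD45+ immune cells, and the CD45- fraction was sequenced. The 5 Control libraries carried the genotype label heterozygous fl/wt for Glut1 and were all male, and the 5 libraries labelled Glut1-KO were homozygous fl/fl (KPG1). Of the latter, replicates 1 to 3 were female and replicates 4 and 5 male. The growth protocol in the labels describes the controls as KP, without naming a floxed Glut1 allele.

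HIF is a dimer of an oxygen-sensitive alpha subunit (HIF-1alpha from Hif1a, HIF-2alpha from Epas1) and the constant beta subunit Arnt. When oxygen is plentiful, prolyl hydroxylases (Egln1, Egln3) mark the alpha subunit for VHL-dependent degradation, and when it is scarce the dimer binds short DNA elements and induces genes for angiogenesis, pH control, mitophagy and glycolysis, including Slc2a1, the gene of Glut1 itself. Much of the control of the alpha subunits thus acts on the protein, which the mRNA level does not show. In lung, Epas1 is prominent in endothelial and alveolar type 2 cells.

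Library totals ran from 35.3 to 49.8 M counts. The targeted gene Slc2a1 stood at 73.2 to 118 CPM (counts per M after TMM scaling, which corrects for library size and composition) in controls. It stood at 34.6 to 60.3 CPM in the 3 female libraries labelled Glut1-KO, below every control, and at 92.4 and 103 CPM in the 2 male ones, within the control range. The Slc2a1 mRNA level thus did not go with the label of replicates 4 and 5, and "labelled Glut1-KO" is used throughout. Counts per gene do not show whether the floxed allele was deleted in these libraries. The log2 fold changes of the 10 genes and the counts of each list of HIF pathway genes are also given without replicates 4 and 5. Of the marker lists, this is done for the endothelial, dissociation stress, leukocyte and epithelial genes. A second number in the deposited names could mark the animal of origin, which the labels leave unsaid. Controls carried 2 such numbers and libraries labelled Glut1-KO carried 4, of which the 2 male libraries shared 1, so within that group sex, the name number and the Slc2a1 level cannot be told apart. As no label says that libraries came from separate animals, p-values measure the spread between libraries, which may in part be technical. Epithelial markers were abundant in every library (6 genes, 3772 to 5230 CPM summed in controls and 2984 to 7302 CPM in libraries labelled Glut1-KO), as were alveolar type 2 markers (8 genes, 27286 to 76430 and 50164 to 67952 CPM). Club markers (5 genes, among them the CC10 gene Scgb1a1) summed to 1689 to 9637 CPM and 924 to 6588 CPM. Leukocyte markers (10 genes, 9 tested) summed to 32.5 to 36.8 CPM in controls and 38.6 to 68.2 CPM in libraries labelled Glut1-KO, and none of the 10 was at 0 in all libraries. Of the 9, 8 had a positive log2 fold change (median 0.88), and 7 without the 2 male libraries (median 1.09). In each fit 6 had an unadjusted p under 0.05 (limma), against 7.68% and 13.8% of all genes, and 0 passed the threshold. Epithelial markers were negative in 4 of 6 cases (median -0.05), and in 5 of 6 without the male libraries (median -0.35), with 0 past the threshold. In such bulk fractions, fewer cells of a type and less RNA per cell cannot be told apart.

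To show the sequence context of the pairs of genes that moved together and of the gene that varied most, promoter windows were taken from RefSeq (GRCm38.p6), from 250 bases to 1 base before the annotated start, on the strand of the gene. The core of the HIF binding element was searched as ACGTG and as GCGTG on both strands, so a palindromic CACGTG counts as 2 matches. A window was found for 8 of the 10 genes, the exceptions being Epas1 and Ndrg1, and each of the 8 had at least 1 match (8 of 9 windows, since Vegfa has 2). Over all 32851 windows, 16.6% held ACGTG, 28.2% held GCGTG and 38.6% held either one. Capitals below mark the matches, which are letters in a window and not measured sites. Bnip3 had 5 matches (chr7:138909507-138909756, minus strand), Egln1 2 (chr8:124949255-124949504, minus strand), Adm 2 (chr7:110627407-110627656, plus strand), Egln3 1 (chr12:54203875-54204124, minus strand) and Car9 1 (chr4:43506776-43507025, plus strand).
Bnip3: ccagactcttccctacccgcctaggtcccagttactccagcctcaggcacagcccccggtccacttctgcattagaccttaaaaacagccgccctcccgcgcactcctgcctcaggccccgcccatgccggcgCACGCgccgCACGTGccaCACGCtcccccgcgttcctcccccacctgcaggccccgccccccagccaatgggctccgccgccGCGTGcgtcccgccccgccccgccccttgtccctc
Egln1: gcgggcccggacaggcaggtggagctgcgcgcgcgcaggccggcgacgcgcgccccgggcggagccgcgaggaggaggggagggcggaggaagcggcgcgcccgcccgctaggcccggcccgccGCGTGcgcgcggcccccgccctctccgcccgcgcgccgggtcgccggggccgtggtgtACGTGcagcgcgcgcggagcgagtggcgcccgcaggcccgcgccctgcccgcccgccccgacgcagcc
Egln3: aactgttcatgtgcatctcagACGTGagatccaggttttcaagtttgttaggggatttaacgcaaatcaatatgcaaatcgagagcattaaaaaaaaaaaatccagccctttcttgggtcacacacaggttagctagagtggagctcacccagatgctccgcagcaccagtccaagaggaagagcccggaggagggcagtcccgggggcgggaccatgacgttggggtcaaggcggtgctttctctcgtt
Adm: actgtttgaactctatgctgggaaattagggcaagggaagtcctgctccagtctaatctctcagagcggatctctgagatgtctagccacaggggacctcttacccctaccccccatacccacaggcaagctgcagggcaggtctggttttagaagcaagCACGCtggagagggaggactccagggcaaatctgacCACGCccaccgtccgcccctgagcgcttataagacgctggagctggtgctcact
Car9: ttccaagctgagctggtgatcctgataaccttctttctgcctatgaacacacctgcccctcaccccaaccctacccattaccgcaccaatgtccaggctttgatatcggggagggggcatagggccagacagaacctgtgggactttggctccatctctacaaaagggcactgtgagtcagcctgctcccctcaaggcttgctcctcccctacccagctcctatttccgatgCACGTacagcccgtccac
The Egln1 and Bnip3 windows held matches of both forms, Adm only GCGTG, and Egln3 and Car9 only ACGTG.

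The first question was how strongly the pathway was expressed in tumors with Glut1. Divided by exon length, the median level over the 5 controls was highest for Epas1 (97.9 CPM per kb) and Vegfa (94.0 CPM per kb), and these neighbours were not separated, since Epas1 exceeded Vegfa in 6 of 10 libraries. Bnip3 (59.7 CPM per kb) and Hif1a (40.4 CPM per kb) came next, with Vegfa above Bnip3 in 8 libraries and Bnip3 above Hif1a in 9. Ndrg1 (30.1 CPM per kb), Egln1 (28.9 CPM per kb) and Egln3 (21.3 CPM per kb) formed a middle tier. Hif1a exceeded Ndrg1 in 8 libraries, Ndrg1 exceeded Egln1 in 7, and Egln1 exceeded Egln3 in 8. Arnt followed at 11.1 CPM per kb and was not separated from Egln3, which was higher in 5 of 10 libraries. Adm (3.76 CPM per kb) and Car9 (3.25 CPM per kb) were lowest, and Adm exceeded Car9 in 4 libraries only. The transcript of the HIF-2alpha gene thus stood above that of the HIF-1alpha gene on the per-length scale in the control median, while every library held at least 8517 Hif1a and 14281 Epas1 counts.

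None of the 10 genes changed past the threshold between the libraries labelled Glut1-KO and the controls (limma on voom values, adjusted p from 0.725 for Hif1a to 0.945 for Car9). The background was equally empty, as 0% of the 15922 genes tested passed (0 genes, smallest adjusted p 0.23), and at an unadjusted p under 0.05 limma called 7.68% of all genes and 0 of the 10. The edgeR quasi-likelihood test called 0 genes, and the DESeq2 Wald test called 1.38% of genes and 0 of the 10. Groups that did not overlap were seen for 1.85% of all genes and for none of the 10. Levels were on average higher in libraries labelled Glut1-KO for 8 of the genes and lower for 2 by fitted log2 fold change, with a median of 0.18 against -0.0049 over all genes, and no statement of direction follows from these counts.

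**Figure D1:**
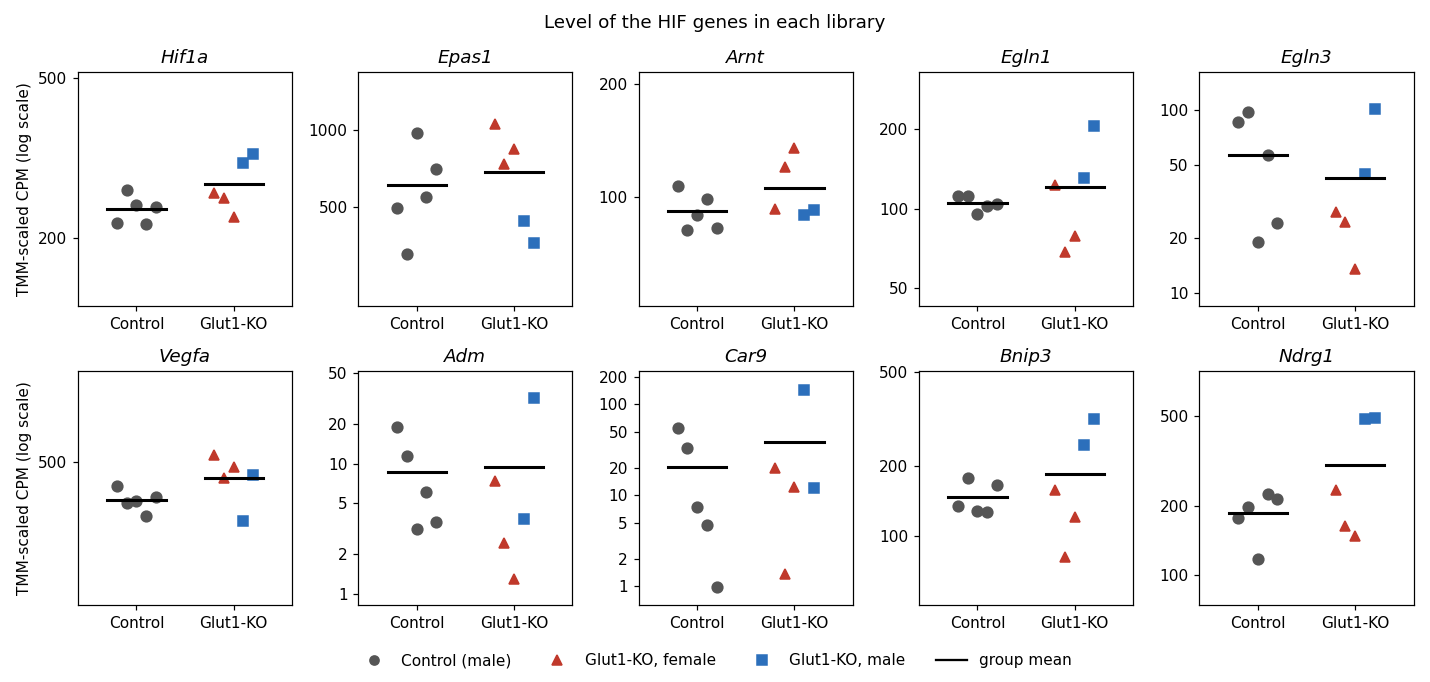
TMM-scaled CPM (log axis) of each of the 10 HIF genes in the 5 Control libraries (circles, all male) and the 5 libraries labelled Glut1-KO (triangles, female; squares, male), replicates from left to right in order of number, with a bar at the arithmetic group mean. The groups overlap in every panel, and the 2 squares lie above all other points for Hif1a, Egln1, Bnip3 and Ndrg1.

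Among the subunits, Hif1a (ENSMUSG00000021109, chr12:73901375-73947530, GRCm38, plus strand) was one of the steadiest genes of the set. Its level was 218, 264, 242, 217 and 238 CPM in Control replicates 1 to 5 and 259, 251, 225, 307 and 324 CPM in replicates 1 to 5 labelled Glut1-KO. The highest levels were those of male replicates 4 and 5, while the 3 female libraries lay within the control range. The log2 fold change was 0.21 (95% confidence interval -0.06 to 0.47, limma adjusted p = 0.725, 2-sided exact permutation p = 0.111). Exons of Hif1a overlap those of Gm49321 on the same strand and of Gm15283 on the opposite one, so reads there are uncertain, as the counting's use of strand is not given in the sources used here.

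Epas1 (ENSMUSG00000024140, chr17:86753700-86833410, plus strand), which encodes the HIF-2alpha subunit, varied more. It stood at 493, 325, 972, 547 and 705 CPM in controls and at 1062, 735, 844, 438 and 361 CPM in libraries labelled Glut1-KO. The female libraries were each above at least 4 of the 5 controls, and the male ones were below 4 of the 5, so the groups overlapped widely (log2 fold change 0.15, interval -0.61 to 0.91, limma adjusted p = 0.936, exact permutation p = 0.690). The fold change was -0.046 without Control replicate 2 and 0.36 without replicate 5 labelled Glut1-KO. Of the endothelial markers, all 12 had a positive log2 fold change over all libraries (median 0.58) and 0 of 12 passed the threshold. Without the 2 male libraries labelled Glut1-KO all 12 were again positive (median 0.89) and 0 passed. There 7 of the 12 had an unadjusted p under 0.05 (limma), against 13.8% of all genes. Over all libraries this held for 1 of the 12, against 7.68% of all genes. The summed levels of the 12 markers overlapped, at 154 to 541 CPM in controls and 256 to 707 CPM in libraries labelled Glut1-KO, and none of the markers was at 0. Control replicate 2 was lowest of all libraries in Epas1 and had both the lowest endothelial sum and the lowest alveolar type 2 sum (154 and 27286 CPM). Epas1 had r = 0.622 with the endothelial sum over the 10 libraries (permutation p = 0.0568, adjusted p = 0.405 over 120 pairs of a gene and a marker sum; rho = 0.600, permutation p = 0.0745, adjusted p = 0.461), 0.453 without the 2 farthest libraries and 0.530 within the 7 male ones.

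Arnt (ENSMUSG00000015522, chr3:95434388-95497240, plus strand), the shared beta subunit, kept within a 1.66-fold range over all libraries. Controls had 107, 81.3, 89.0, 98.2 and 82.2 CPM and libraries labelled Glut1-KO had 92.5, 120, 135, 89.0 and 91.8 CPM. Female replicates 2 and 3 labelled Glut1-KO were above every control and the other 3 libraries were within the control range (log2 fold change 0.20, interval -0.12 to 0.51, limma adjusted p = 0.771, exact permutation p = 0.222), and the fold change was 0.10 without replicate 3 labelled Glut1-KO.

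The hydroxylases that mark the alpha subunits, themselves HIF targets, differed in how much they varied. Egln1 (ENSMUSG00000031987, chr8:124908587-124949324, minus strand) was tight in controls, at 111, 112, 95.2, 102 and 104 CPM, and spread out in libraries labelled Glut1-KO, at 123, 68.6, 78.8, 131 and 205 CPM. Female replicates 2 and 3 were below every control, and female replicate 1 and both male libraries above every control. These opposite deviations left a log2 fold change of 0.10 (interval -0.46 to 0.66, limma adjusted p = 0.941, exact permutation p = 0.778). It was -0.11 without replicate 5 labelled Glut1-KO and 0.64 with male libraries only. Egln3 (ENSMUSG00000035105, chr12:54178981-54203860, minus strand) had 86.0, 97.7, 19.1, 56.6 and 24.0 CPM in controls and 27.6, 24.5, 13.6, 44.7 and 100.3 CPM in libraries labelled Glut1-KO. Its range was wide in both groups, with the highest level in male replicate 5 and the lowest in female replicate 3, and its groups overlapped (log2 fold change -0.50, interval -1.80 to 0.80, limma adjusted p = 0.861, exact permutation p = 0.508). With 1 library left out the value lay between -0.91 (without replicate 5 labelled Glut1-KO) and -0.16 (without replicate 3 labelled Glut1-KO), and it turned positive, to 0.53, with male libraries only or with sex as a covariate.

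Vegfa (ENSMUSG00000023951, chr17:46016993-46032369, minus strand), the main angiogenic ligand, was the narrowest of the 10 genes. It had 438, 400, 403, 370 and 412 CPM in controls and 520, 459, 489, 361 and 467 CPM in libraries labelled Glut1-KO, a 1.44-fold range over all libraries. Replicates 1, 2, 3 and 5 labelled Glut1-KO exceeded every control and male replicate 4 was below every control. The log2 fold change was 0.17 (interval -0.08 to 0.43, limma adjusted p = 0.756, exact permutation p = 0.111).

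Adm (ENSMUSG00000030790, chr7:110627661-110629820, plus strand), which encodes the vasodilator peptide adrenomedullin, was low and uneven. It had 18.9, 11.4, 3.16, 6.08 and 3.57 CPM in controls and 7.35, 2.47, 1.30, 3.74 and 32.1 CPM in libraries labelled Glut1-KO, from 58 to 1416 reads. Male replicate 5 was the highest library and female replicate 3 the lowest, a 24.6-fold range. The log2 fold change was -0.49 (interval -2.24 to 1.27, limma adjusted p = 0.904, exact permutation p = 0.627), and its sign turned to positive with the edgeR and DESeq2 tests (0.12 and 0.13). The arithmetic means (8.62 ± 6.62 CPM in controls, 9.39 ± 12.9 CPM in libraries labelled Glut1-KO, SD, n = 5 each) likewise differed in the opposite direction from the log2 fold change.

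Car9 (ENSMUSG00000028463, chr4:43506966-43513729, plus strand), a cell surface carbonic anhydrase that is a widely used marker of hypoxia, had the largest range of the set. Controls had 55.4, 33.2, 7.48, 4.68 and 0.989 CPM and libraries labelled Glut1-KO had 19.9, 1.38, 12.4, 144 and 12.0 CPM, from 41 to 4706 reads. The highest library, male replicate 4, was 146-fold above the lowest, Control replicate 5, and within the controls alone the range was 56.0-fold. The confidence interval of the log2 fold change of 0.47 ran from -2.31 to 3.26 (limma adjusted p = 0.945, exact permutation p = 0.698), so neither a rise nor a fall of several fold was resolved at this number of libraries. The fold change was -0.31 without Control replicate 5 and 2.03 with male libraries only. Gm12454 overlaps the exons of Car9 on the opposite strand.

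Bnip3 (ENSMUSG00000078566, chr7:138890836-138909519, minus strand), a mitochondrial mitophagy receptor, and Ndrg1 (ENSMUSG00000005125, chr15:66929318-66969640, minus strand), a stress-responsive cytoplasmic protein, shared one feature. Both were highest in the 2 male libraries labelled Glut1-KO. Bnip3 stood at 135, 177, 128, 127 and 165 CPM in controls and at 157, 81.4, 121, 244 and 316 CPM in libraries labelled Glut1-KO (log2 fold change 0.18, interval -0.52 to 0.88, limma adjusted p = 0.910, exact permutation p = 0.627). Of the female libraries, replicate 1 was within the control range and replicates 2 and 3 below it. Without replicate 5 labelled Glut1-KO the Bnip3 fold change was -0.046. Ndrg1 stood at 177, 198, 118, 227 and 216 CPM in controls and at 235, 164, 149, 483 and 490.5 CPM in libraries labelled Glut1-KO (log2 fold change 0.55, interval -0.22 to 1.33, limma adjusted p = 0.745, exact permutation p = 0.254), and the fold change was 0.34 without male replicate 4 and 0.35 without male replicate 5. Both male libraries thus lay above every other library in Ndrg1, with female replicate 1 slightly above the control range and the other female libraries within it. Opposite-strand genes overlap the exons of both (Gm45507 for Bnip3, Gm17035 and Gm2895 for Ndrg1).

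**Figure D2:**
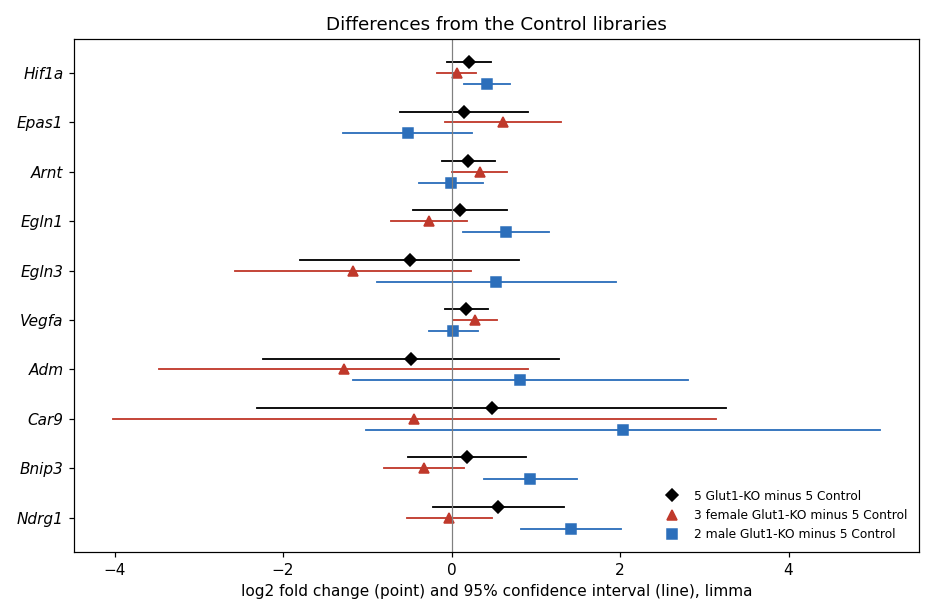
Log2 fold change against the 5 Control libraries (points) with 95% confidence intervals (lines) for the 10 HIF genes, for all 5 libraries labelled Glut1-KO (diamonds), the 3 female ones (triangles) and the 2 male ones (squares). The squares of Hif1a, Egln1, Bnip3 and Ndrg1 and the triangles of Arnt and Vegfa have unadjusted intervals above 0, whereas for all 5 libraries the intervals of all 10 genes span 0.

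Because Slc2a1 divided the libraries labelled Glut1-KO by sex, a model with 3 groups (Control, female and male labelled Glut1-KO) was fitted, chosen after the data had been seen. Between the male and female libraries labelled Glut1-KO, 6 genes had an unadjusted p under 0.05 and 0 passed after adjustment, while over all genes 18.6% had an unadjusted p under 0.05 and 0.0502% passed. Ndrg1 was higher in the male libraries by 1.44 on the log2 scale (SE 0.29, limma adjusted p = 0.105) and Bnip3 by 1.26 (SE 0.27, adjusted p = 0.106). Egln1 (0.91, adjusted p = 0.138), Egln3 (1.70, adjusted p = 0.261) and Hif1a (0.36, adjusted p = 0.201) had values of the same sign, and Epas1 (-1.13, adjusted p = 0.177) the opposite one. With other scalings, or with a Control or female library left out, the sign of this difference was the same for all 10 genes and none passed the threshold. With male replicate 4 or 5 left out, the male arm is 1 library, assumed to vary like the other groups, and the values, of the same sign for all 10 genes, are given here as a description. The size depended on single libraries for several genes. Without male replicate 5 the difference of Adm went from 2.10 to 0.41, that of Egln3 to 1.12, that of Egln1 to 0.60 and that of Vegfa from -0.25 to -0.42. Without male replicate 4 that of Car9 went from 2.48 to 0.77, that of Adm to 3.49 and that of Vegfa to -0.063. Car9 had 4.37 without male replicate 5 and 1.32 without female replicate 2, and Arnt -0.22 without female replicate 3 against -0.34 with all libraries. In a separate fit without both male libraries, the female libraries against controls gave log2 fold changes of 0.61 for Epas1, 0.34 for Arnt, 0.28 for Vegfa, 0.065 for Hif1a, -0.022 for Ndrg1, -0.26 for Egln1, -0.32 for Bnip3, -0.43 for Car9, -1.16 for Egln3 and -1.27 for Adm, and 0 of 10 passed the threshold (limma). Both male libraries lay above the other 8 for 4 of the 10 genes (Hif1a, Egln1, Bnip3, Ndrg1), against 5.87% of all genes.

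Against the same controls, the male and the female libraries labelled Glut1-KO gave different values, and both contrasts share those 5 controls. For the male libraries, Ndrg1 (1.41), Bnip3 (0.93), Egln1 (0.64) and Hif1a (0.42) had an unadjusted p under 0.05 on the log2 scale, with a smallest adjusted p of 0.164, where 11.1% of all genes had such a p and 0.0188% passed after adjustment. For the female libraries, the only ones with a Slc2a1 level below the controls, this held for Arnt (0.33) and Vegfa (0.27), with a smallest adjusted p of 0.321 and backgrounds of 14.6% unadjusted and 0.0691% adjusted. As all 5 controls are male, sex and the Slc2a1 level cannot be told apart in this contrast. In the female libraries Ndrg1 was at -0.03, Bnip3 at -0.33, Egln1 at -0.26, Egln3 at -1.17 and Epas1 at 0.61, none past the threshold. All 12 endothelial markers were also positive there (median 0.89 in the separate fit without the male libraries, 0 past the threshold).

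Marker sums of the male libraries labelled Glut1-KO were set beside these values, and no marker gene passed the threshold. Epithelial markers summed to 7302 CPM in male replicate 4, above every other library, and to 5048 CPM in male replicate 5, within the control range of 3772 to 5230 CPM and above the female libraries (2984 to 3996 CPM). The sum of dissociation stress genes (12 early response genes, such as Fos and Jun) was lowest there, at 4390 and 3907 CPM against 5703 to 6505 CPM in the female libraries and 6061 to 8134 CPM in controls. All 12 stress genes had a negative log2 fold change over the whole comparison (median -0.39, 0 of 12 past the threshold) and 9 of 12 without the male libraries labelled Glut1-KO (median -0.23), and none was at 0. Erythroid genes (4, none at 0 in all libraries) summed to 354 and 248.6 CPM in male replicates 4 and 5, against 119 to 138 CPM in the female libraries and 152 to 923 CPM in controls. Proliferation genes (8) summed to 191 and 217 CPM, against 297 to 333 CPM in the female libraries and 215 to 497 CPM in controls. Neutrophil genes (4) summed to 22.8 and 4.85 CPM, against 1.50 to 4.14 CPM in the female libraries and 2.54 to 7.55 CPM in controls. Alveolar type 1 genes summed to 1843 and 1307 CPM (female 1978 to 2653, controls 1220 to 2105 CPM) and leukocyte genes to 54.9 and 38.6 CPM (female 56.3 to 68.2, controls 32.5 to 36.8 CPM). Fibroblast genes summed to 198 and 410 CPM (female 63.5 to 230, controls 94.0 to 370 CPM) and club genes to 3896 and 924 CPM (female 1943 to 6588, controls 1689 to 9637 CPM). Across the 10 libraries, the 10 genes were correlated with the 12 marker sums (log2 scale, 100000 permutations, adjusted over 120 pairs, chosen after the data had been seen), and 0 pairs had an adjusted p under 0.05. With the stress sum, Ndrg1 had r = -0.911 (permutation p = 0.0016, adjusted p = 0.106; rho = -0.770, permutation p = 0.0125, adjusted p = 0.299) and Hif1a r = -0.858 (permutation p = 0.00352, adjusted p = 0.106; rho = -0.758, permutation p = 0.0150, adjusted p = 0.300). Bnip3 had r = -0.728 (permutation p = 0.0173, adjusted p = 0.297; rho = -0.539, permutation p = 0.112, adjusted p = 0.501) and Egln1 r = -0.705 (permutation p = 0.0227, adjusted p = 0.335; rho = -0.685, permutation p = 0.0339, adjusted p = 0.461). Without the 2 male libraries labelled Glut1-KO, which were farthest from the median stress sum, these r were -0.59, -0.38, 0.04 and -0.05 in that order, so the relations of Hif1a, Bnip3 and Egln1 rest on these libraries. Within the 7 male libraries they were -0.95, -0.87, -0.93 and -0.90.

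**Figure D3:**
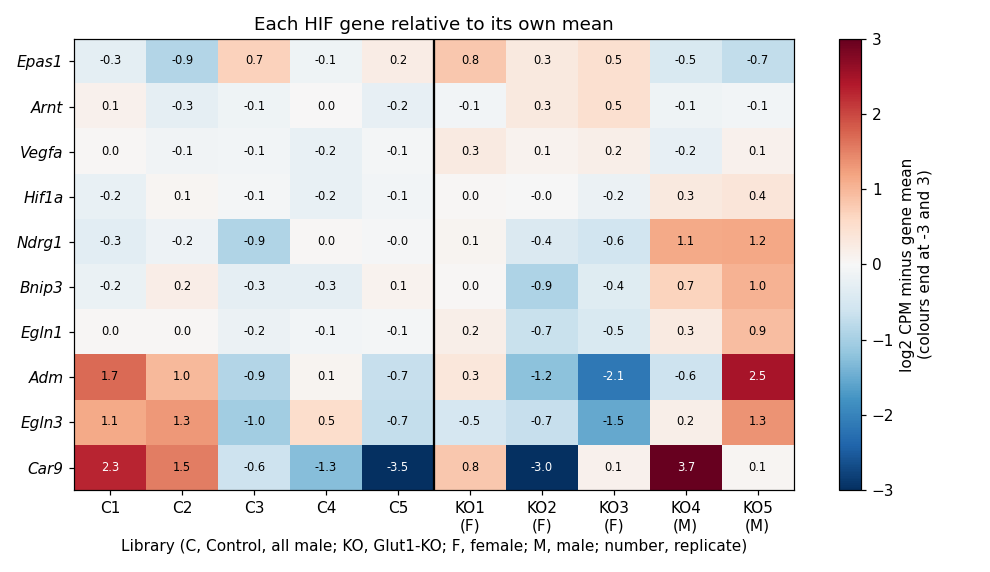
Log2 CPM of each HIF gene in each library minus the mean of that gene over the 10 libraries (color, ending at -3 and 3, with the value printed in each cell). Ndrg1, Bnip3 and Egln1 are high in KO4 and KO5, Adm and Egln3 are high in C1, C2 and KO5, and Epas1 has the opposite sign to Egln3 in 10 of 10 libraries.

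How far libraries of the same group differed varied among the 10 genes. The SD of log2 CPM within groups, pooled over both groups, was 0.15 for Vegfa, 0.17 for Hif1a and 0.23 for Arnt, which put them in the lower part of all genes tested (percentiles 7.61, 11.5 and 24.5). The other 7 genes were above the median gene (0.35). The highest were Car9 with an SD of 2.35 (percentile 99.4), Adm with 1.47 (percentile 96.0) and Egln3 with 1.07 (percentile 90.7). Adm and Car9 also had the lowest levels of the set, with reads from 58 to 1416 and from 41 to 4706 per library, and the part of their low level in this spread was not tested. Each of the 10 genes had a lower SD in controls than in libraries labelled Glut1-KO. The values were 0.10 and 0.63 for Egln1, 0.22 and 0.78 for Bnip3, 0.38 and 0.83 for Ndrg1, but 0.59 and 0.65 for Epas1, 1.07 and 1.08 for Egln3, and 2.31 and 2.39 for Car9. The share of all genes with a lower SD in controls was not counted, so this does not set the 10 genes apart from others. The difference between the groups was not tested, and the group labelled Glut1-KO holds both sexes while all controls are male.

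**Figure D4:**
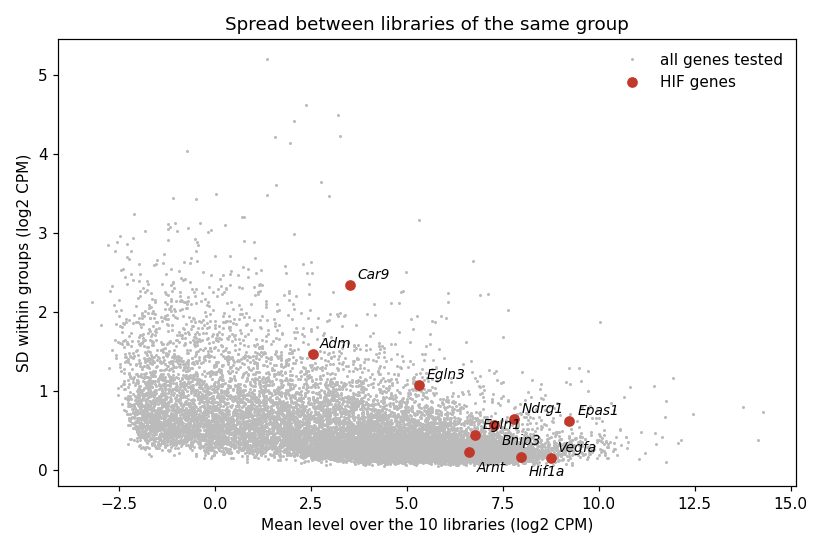
Within-group SD of log2 CPM (vertical axis) against the mean log2 CPM over the 10 libraries (horizontal axis) for all 15922 genes tested (grey) and the 10 HIF genes (red). Car9, Adm and Egln3 lie high, and Vegfa, Hif1a and Arnt low.

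The next question was whether the genes varied together across libraries. All 45 pairs were compared by log2 CPM over the 10 libraries (permutation tests with 100000 draws, Benjamini-Hochberg adjusted over the 45), and 6 had an adjusted p under 0.05 by Pearson's r. Pairs of other genes were not counted here, so these 6 do not set the 10 genes apart from others. Egln1 and Bnip3 rose and fell together most closely (r = 0.934, permutation p = 0.0002, adjusted p = 0.00855; Spearman's rho = 0.927, permutation p = 0.00034, adjusted p = 0.0117). Without the 2 libraries farthest from the median of Egln1 (replicates 2 and 5 labelled Glut1-KO) the r was 0.773, within the 7 male libraries 0.914, and after removing group means 0.934. With counts summed over libraries that share a name number (n = 6) it was 0.963. Each of the 10 analyses that left out 1 library kept the adjusted p under 0.05.

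Egln3 and Adm formed a second pair (r = 0.894, permutation p = 0.00038, adjusted p = 0.00855; rho = 0.915, permutation p = 0.00052, adjusted p = 0.0117). The r was 0.857 without the 2 libraries farthest from the median of Egln3, 0.876 in the male libraries and 0.924 over the 6 name numbers, and the adjusted p stayed under 0.05 in 9 of 10 leave-one-out analyses (0.061 without replicate 3 labelled Glut1-KO). Epas1 ran opposite to Egln3 (r = -0.877, permutation p = 0.0017, adjusted p = 0.0255; rho = -0.806, permutation p = 0.00726, adjusted p = 0.073). That r was -0.769 without the 2 farthest libraries, -0.907 in the male libraries and -0.823 over the 6 name numbers, and the adjusted p stayed under 0.05 in 6 of 10 leave-one-out analyses. In Control replicate 2 and male replicate 5, the libraries with the lowest Epas1 levels, the alveolar type 2 sums (27286 and 50164 CPM) were the lowest of all. The alveolar type 1 sums (6 genes, none at 0) were also low there, at 1321 and 1307 CPM in a range of 1220 to 2653 CPM, and 0 of the 4 relations of these sums with Epas1 and Egln3 passed adjustment over the 120 pairs. Epas1 had r = 0.844 with the alveolar type 1 sum (permutation p = 0.00296, adjusted p = 0.106; rho = 0.842, permutation p = 0.00367, adjusted p = 0.267) and 0.738 with the type 2 sum (permutation p = 0.00325, adjusted p = 0.106; rho = 0.794, permutation p = 0.00889, adjusted p = 0.267). Egln3 had r = -0.824 with the type 1 sum (permutation p = 0.00464, adjusted p = 0.111; rho = -0.794, permutation p = 0.00838, adjusted p = 0.267) and -0.678 with the type 2 sum (permutation p = 0.0111, adjusted p = 0.222; rho = -0.794, permutation p = 0.00875, adjusted p = 0.267). Without the 2 libraries farthest from the median of the marker sum these r were 0.920, 0.609, -0.820 and -0.659, and within the 7 male libraries 0.712, 0.751, -0.809 and -0.686.

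The other 3 pairs were less steady. Bnip3 and Ndrg1 (r = 0.843, permutation p = 0.00328, adjusted p = 0.0369; rho = 0.733, permutation p = 0.0200, adjusted p = 0.129) kept an r of 0.855 without the 2 libraries farthest from the median of Bnip3, replicates 2 and 5 labelled Glut1-KO. Egln1 and Ndrg1 had r = 0.802 (permutation p = 0.00443, adjusted p = 0.0399; rho = 0.842, permutation p = 0.00343, adjusted p = 0.0514) and 0.751 without the same 2 libraries, and Egln1 and Adm r = 0.786 (permutation p = 0.00607, adjusted p = 0.0455; rho = 0.794, permutation p = 0.00811, adjusted p = 0.073) and 0.602. Male replicate 4 stayed in, so these values do not show whether the pairs rest on the 2 male libraries labelled Glut1-KO. In these 3 pairs the adjusted p stayed under 0.05 in 4, 3 and 2 of the 10 leave-one-out analyses, and it reached 0.272 in each when replicate 5 labelled Glut1-KO was left out. Hif1a and Ndrg1 (r = 0.792) and Hif1a and Bnip3 (r = 0.769) both missed the threshold (permutation, adjusted p = 0.0574 each), and their r fell to 0.09 and 0.19 without the 2 male libraries labelled Glut1-KO, on which they rest. Within the 7 male libraries alone, none of the 6 pairs kept an adjusted p under 0.05 (0.0621 for Egln1 and Bnip3 to 0.271 for Egln1 and Adm, permutation tests), while r was 0.893 for Bnip3 and Ndrg1, 0.819 for Egln1 and Ndrg1 and 0.679 for Egln1 and Adm. None of these p-values allows for libraries that share a name number.

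**Figure D5:**
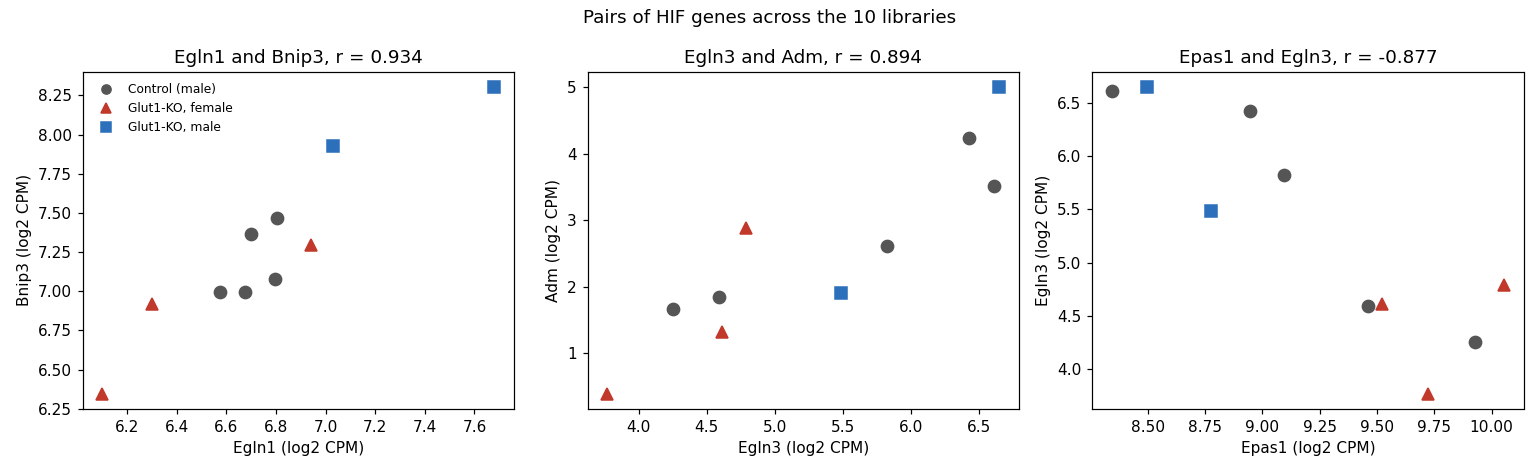
Log2 CPM of 3 pairs of HIF genes in the 10 libraries (circles, Control; triangles, female labelled Glut1-KO; squares, male labelled Glut1-KO), with Pearson's r above each panel. Egln1 and Bnip3 (0.934) and Egln3 and Adm (0.894) rise together, while Epas1 and Egln3 (-0.877) run in opposite directions.

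For each of the 10 genes, the other gene with the most similar log2 CPM profile was taken from 15921 candidates, as a description over 10 libraries. Egln1 was most like Fkbp8 (r = 0.977, 164 to 177 CPM in controls and 123 to 287 CPM in libraries labelled Glut1-KO), Egln3 most like Taf4b (0.981), Adm most like Naaa (0.973), Bnip3 most like Rps27l (0.972) and Epas1 most like Gm11705 (0.961). Ndrg1 was most like Usmg5 (0.950), Arnt most like Mynn (0.947), Hif1a most like Cyc1 (0.939) and Vegfa most like Cdk10 (0.937). Car9 had the loosest match, Bcat1 (0.887). None of these neighbours was itself one of the 10, and each r is a maximum over all candidates.

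The wider pathway was read from 7 lists of 86 genes, of which 85 could be tested. None of the 85 passed the threshold (limma, background 0%), 10 had an unadjusted p under 0.05 against 7.68% of all genes, and 61 had a positive and 24 a negative log2 fold change (median 0.11). Over all genes 49.3% were positive. Without the 2 male libraries labelled Glut1-KO (chosen after the data had been seen), 47 of the 85 were positive and 38 negative (median 0.05), against 8165 positive of all 16430 genes tested there. Of the 85, 0 passed the threshold and 10 had an unadjusted p under 0.05, against 13.8% of all genes. Among 14 regulators, 11 were positive and 3 negative (median 0.09), and 10 and 4 without the male libraries. Hif1an, the asparaginyl hydroxylase that blocks HIF transactivation, averaged 66.5 ± 7.14 CPM in controls and 87.2 ± 14.5 CPM in libraries labelled Glut1-KO (SD, n = 5; log2 fold change 0.38, limma adjusted p = 0.559). Cited2, which competes with HIF for the coactivator p300, averaged 185 ± 40.3 and 145 ± 18.1 CPM (log2 fold change -0.33, limma adjusted p = 0.665). Neither passed the threshold.

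Of 17 glycolytic targets, 15 were positive and 2 negative (median 0.18, 0 past the threshold). Without the 2 male libraries labelled Glut1-KO the balance turned, with 7 positive and 10 negative (median -0.12, 0 past the threshold). For 10 of the 17 the lowest female library was below every control, against 5941 of all 16430 genes tested there. Every female library was below every control for 1 of the 17, against 878 of the 16430 genes. The glycogen synthase gene Gys1 averaged 95.2 ± 11.4 and 123 ± 16.2 CPM (log2 fold change 0.37, limma adjusted p = 0.531), and the hexokinase gene Hk2 149.6 ± 12.6 and 130.0 ± 38.4 CPM (log2 fold change -0.24, adjusted p = 0.768). Without the male libraries these values were 0.27 for Gys1 and -0.47 for Hk2 (limma adjusted p = 0.408 and 0.198). As with Bnip3 and Ndrg1, both male libraries labelled Glut1-KO lay above the other 8 for 8 of these 17 genes (Pgam1, Tpi1, Aldoa, Gpi1, Gapdh, Pgk1, Ldha and, narrowly, at 129.5 CPM or more against at most 127.9 CPM, Gys1) and for 14 of the 85 in all, against 5.87% of genes. Ldha, the lactate dehydrogenase A gene, had 2500 and 2334 CPM there, 1808, 886 and 1133 CPM in the female libraries and 1073 to 1986 CPM in controls, and its log2 fold change was 0.18 with and -0.22 without the male libraries. Pgk1, phosphoglycerate kinase, had 574 and 592 CPM there, 263, 141 and 206 CPM in the female libraries and 215 to 420.5 CPM in controls (0.18 with and -0.45 without). The lowest female library was thus below every control in both genes, and likewise in Tpi1 (519 against at least 577 CPM), Aldoa (788 against 979), Gpi1 (404 against 455) and Gapdh (38.8 against 41.4). That library was female replicate 2, or replicate 3 for Gapdh. Female replicate 1 was within the control range in Ldha, Pgk1, Gpi1 (555 CPM) and Gapdh (120 CPM). It was below that range in Tpi1 (566 CPM) and above every control in Aldoa (1272 CPM). Several of these enzymes have processed pseudogenes, so their counts are uncertain where reads map to more than 1 copy.

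Of 9 tested targets in pH control and angiogenesis, 3 were positive and 6 negative (median -0.29), and 2 and 7 without the male libraries labelled Glut1-KO (median -0.41). Edn1, which encodes the vasoconstrictor endothelin-1, had the smallest adjusted p of the 85. It averaged 24.5 ± 9.82 CPM in controls (12.4 to 35.9 CPM) and 9.50 ± 3.98 CPM in libraries labelled Glut1-KO (6.18 to 15.5 CPM), with overlapping groups (log2 fold change -1.35, limma adjusted p = 0.404, exact permutation p = 0.0159). DESeq2 called it (adjusted p = 0.0155), and under the other settings its adjusted p was up to 0.722. Angpt2, a ligand of the endothelial receptor Tie2, was at 3.20 ± 0.535 and 5.44 ± 2.14 CPM (log2 fold change 0.72, limma adjusted p = 0.608).

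Of 17 mitochondrial and stress targets, 10 were positive and 7 negative (median 0.07), and 8 and 9 without the male libraries (median -0.03). Bhlhe41, a transcriptional repressor, ranged from 2.70 to 16.4 CPM in controls and from 1.15 to 4.67 CPM in libraries labelled Glut1-KO (log2 fold change -1.60, limma adjusted p = 0.482), and Cox4i2, a cytochrome c oxidase isoform, averaged 2.69 ± 1.08 and 4.44 ± 1.68 CPM (0.70, adjusted p = 0.658; 0.44 without the male libraries). In this list Insig2, Ero1l, Higd1a and Hilpda were highest in the 2 male libraries labelled Glut1-KO. For Ero1l this was a near tie, at 456.5 CPM in male replicate 5 against 456.3 CPM in the highest other library. Of 9 matrix and chromatin targets, 5 were positive and 4 negative (median 0.06), and 4 and 5 without the male libraries (median -0.11). The collagen lysyl hydroxylase gene Plod2 averaged 11.4 ± 6.08 and 18.2 ± 6.96 CPM (log2 fold change 0.69, limma adjusted p = 0.718), and Wsb1, a ubiquitin ligase component, 125 ± 4.83 and 101 ± 28.5 CPM (-0.35, adjusted p = 0.687; -0.11 without the male libraries).

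Receptors of the secreted ligands were positive in 6 of 7 cases (median 0.39, 0 past the threshold), also without the male libraries labelled Glut1-KO (median 0.41). Flt1, a Vegfa receptor of endothelial cells, averaged 67.7 ± 9.40 and 94.1 ± 27.3 CPM (log2 fold change 0.44, limma adjusted p = 0.612; 0.29 without the male libraries), and Nrp2, a coreceptor, 32.2 ± 21.1 and 24.1 ± 8.15 CPM (-0.28, adjusted p = 0.883). The highest Flt1 level was 141 CPM in male replicate 4. That library had the lowest endothelial sum of the group labelled Glut1-KO (256 CPM). Kdr and Ramp2 of this list are also among the endothelial markers, all 12 of which were positive with and without the male libraries (median 0.58 and 0.89). Paralogs of the 10 genes were positive in 11 of 12 cases (median 0.25, 0 past the threshold) and in 10 of 12 without the male libraries (median 0.14), from the carbonic anhydrase gene Car14 (0.443 ± 0.197 and 0.895 ± 0.270 CPM, log2 fold change 1.03, limma adjusted p = 0.554) to Figf, which encodes VEGF-D (2.84 ± 0.734 and 1.69 ± 0.382 CPM, -0.75, adjusted p = 0.559).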

How the data were processed

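Polyadenylated RNA of 10 CD45- tumor fractions was sequenced (stranded mRNA kit, single-end reads, NextSeq). The authors trimmed reads with Cutadapt and aligned them to mm10 with HISAT2. Their processing notes also name bcl2fastq 2.17, featureCounts 1.4.4 and edgeR, while strand use in counting and the annotation release are not given in the sources used here. The deposited values are raw counts per gene, not normalized, and all 10 columns of the annotated table equalled the single files. A deposited log2 table was not used.

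The study's test was used in R 4.3.3. TMM scaling with edgeR 4.0.16 followed filterByExpr (minimum count 10, minimum total 15), and limma 3.58.1 was fitted to voom values (0.5 as the prior count) on group alone, adjusting by Benjamini-Hochberg over 15922 genes, threshold 0.05. Single genes were also tested over all 252 assignments of libraries (2-sided exact permutation test of mean log2 CPM, smallest p 0.00794). Positions came from GENCODE M21 (GRCm38), which held 96.6% of the genes. The scripts were tested on simulated data.

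The 10 genes and all lists were chosen with earlier results of these data known. Genes named beyond the 10 and Slc2a1 were, per list, the lowest p in each direction, and per gene the most correlated one. Genes named for being highest in the 2 male libraries labelled Glut1-KO were chosen after their values were seen. Alternatives were edgeR and DESeq2 1.42.0 tests, other scalings, filters, covariates and subsets of libraries.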

Additional observations from a re-analysis of the deposited data

Results flagged for a closer look

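Dixon's test at the 95% level was applied to 74 groups of 5 libraries, and 5 had 1 library far from the others. For normally distributed values about 3.7 (1 in 20) would be flagged by chance. The distribution of the CPM values was not checked and the groups share libraries, so that number is only a rough guide. Within the group labelled Glut1-KO, Adm reached 32.1 CPM in male replicate 5 and 1.30 to 7.35 CPM in the other 4. Car9 reached 144 CPM in male replicate 4 and 1.38 to 19.9 CPM in the other 4. The Vegfa receptor gene Flt1 had 141 CPM in the same library, against 75.0 to 93.9 CPM. The summed level of 4 neutrophil markers, none at 0 in all libraries, was also farthest out there, at 22.8 CPM against 1.50 to 4.85 CPM. Of the controls, replicate 3 had a sum of 923 CPM of 4 erythroid genes, against 152 to 240 CPM.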

How the results depend on the processing

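The count of HIF genes past the threshold was 0 of 10 under every one of the 23 alternatives. Over all genes the count of 0 became 215 with DESeq2, 3 with sex as a covariate, 1 with male libraries only, 9 with the female libraries labelled Glut1-KO only, 2 with counts summed per name number, and 0 to 1 when 1 library was left out (1 without Control replicate 3). Among the listed genes DESeq2 called 1, Edn1. Of 229 values of the 10 genes, 21 changed sign and 0 passed the threshold (smallest adjusted p 0.164), and Hif1a and Vegfa never changed sign, although Hif1a went from 0.21 to 0.065 with female libraries labelled Glut1-KO only and to 0.42 with male libraries only, and Vegfa from 0.17 to 0.020 with male libraries only and 0.021 with sex as a covariate. With sex as a covariate and with male libraries only, respectively, the log2 fold changes became -0.52 and -0.52 for Epas1, -0.0074 and -0.0083 for Arnt, 0.53 and 0.53 for Egln3, 0.82 and 0.82 for Adm, 0.061 and 0.060 for Slc2a1, and 0.11 and 0.11 for Hk2. Without a change of sign, the same 2 settings gave 2.03 and 2.03 for Car9, 1.41 and 1.41 for Ndrg1, 0.93 and 0.93 for Bnip3, and 0.64 and 0.64 for Egln1. Car9 was also at 0.90 with edgeR, 0.91 with DESeq2 and 0.97 with library quality weights. With female libraries labelled Glut1-KO only the log2 fold changes became -0.26 for Egln1, -0.43 for Car9, -0.32 for Bnip3 and -0.022 for Ndrg1. Adm turned to 0.12 with edgeR and 0.13 with DESeq2. Leaving out 1 library gave -0.046 (without Control replicate 2) to 0.36 for Epas1, -0.11 (without replicate 5 labelled Glut1-KO) to 0.28 for Egln1, -1.18 to 0.029 (without replicate 3 labelled Glut1-KO) for Adm, -0.31 (without Control replicate 5) to 1.33 for Car9, -0.046 (without replicate 5 labelled Glut1-KO) to 0.43 for Bnip3, and -0.46 to 0.031 (without Control replicate 1) for Nrp2. For the genes whose sign held when 1 library was left out, the range was -0.91 (without replicate 5 labelled Glut1-KO) to -0.16 (without replicate 3 labelled Glut1-KO) for Egln3, 0.34 (without replicate 4 labelled Glut1-KO) to 0.76 for Ndrg1, 0.10 (without replicate 3 labelled Glut1-KO) to 0.25 for Arnt, 0.15 to 0.27 for Hif1a and 0.12 to 0.26 (without replicate 4 labelled Glut1-KO) for Vegfa. With counts summed per name number, Car9 was at 0.016, Bnip3 at 0.055, Egln1 at 0.042, Ndrg1 at 0.35, Arnt at 0.28, Epas1 at 0.26, Vegfa at 0.28, Hif1a at 0.18, Egln3 at -0.72 and Adm at -0.54. Apart from the changes of libraries or model, the cause was not tested. Other scalings moved the median log2 fold change of all genes by at most 0.0109. Adm, at an average TPM under 20, was not tested under the study's filter. Replicate numbers did not pair the libraries (correlations of same-numbered deviations from -0.13 to 0.20, 1 control best with its own number), and with the replicate block 0 genes passed, with 0.54 for Ndrg1, 0.69 for Car9 and -0.16 for Adm.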
